A study of Mus musculus with 18 samples.

Results

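The regions described here are stretches of the mouse genome in which a peak was called in every one of 8 ATF4 ChIP-seq lists, 4 from neurons given 2-deoxyglucose (2-DG) and 4 from untreated neurons. Peaks on chromosomes 1 to 19 and X that shared at least 1 bp were merged over the 8 lists, which gave 35717 regions. Of these, 365 were touched by a peak in all 8 lists, and 260 of the 365 remained after regions touched by a control peak of 800 bp or wider were set aside. The 260 are called narrow regions below and the 105 set aside are called wide regions. After merging, the 260 were 107 to 2380 bp wide with a median of 419.5 bp, and since the limit applied to control peaks alone, 11 of them held a 2-DG peak of 800 bp or wider, the widest 1235 bp. The members were chosen by the peak calls in both treatments and by peak width in the control lists, so calls and widths are descriptions and carry no test.

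The 2-DG samples were primary immature neurons of mouse embryos at embryonic day 14, kept 2 days in vitro and exposed to 10 mM 2-DG for 6 h, and the control samples were the same kind of culture left untreated. The labels used here name neither strain nor sex of the embryos. Of 18 samples, 10 immunoprecipitations had a list, and 2 of the 10 were kept out of every comparison because their title and description name opposite treatments. The antibody label reads none for the controls, whereas the series design names an ATF4 antibody for both treatments, so the antibody behind the control lists cannot be settled from the labels. By the design there were 3 independent replicates, and no label assigns the 4 lists of a treatment to separate cultures. The p-values below therefore reflect the variation among the samples at hand, possibly technical in part. The 2-DG lists held 15240, 7369, 6371 and 5856 peaks in replicates 1 to 4, and the control lists held 3461, 3784, 8202 and 6811. Read counts are not part of the lists, and library depth is unknown.

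ATF4 is a basic leucine zipper transcription factor of the integrated stress response, which binds C/EBP-ATF composite elements near genes for amino acid supply, tRNA charging and stress adaptation. 2-DG is a glucose analogue that slows glycolysis and disturbs protein glycosylation. In ChIP-seq, some stretches of a genome gather reads in most libraries whatever the antibody, commonly where a sequence has near-identical copies or is incompletely assembled, and published lists of such stretches are used to filter peaks. No such list was used here, and whether the narrow regions belong to one was not tested.

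No genome sequence was at hand, so sequence could be shown only where a narrow region reached into a RefSeq promoter window, from 250 bases before to 50 bases after a gene start (GRCm38.p6). Of 130 genes touched by a narrow region or lying within 2000 bp of one, 81 were in the promoter table, and promoters of 4 genes shared bases with 4 narrow regions. The 3 with the most shared bases are printed because they are the stretches of called sequence that can be read directly. All 3 are on the minus strand, and capitals mark the bases inside the narrow region. Gm13822, an lncRNA gene beside Oasl1, has its window at chr5:114922212-114922511, with 64 bases inside. Olfr1402, an olfactory receptor gene, has its window at chr3:97411130-97411429, with 266 bases inside. AY761185 has its window at chr8:20944699-20944998, with 108 bases inside.
Gm13822: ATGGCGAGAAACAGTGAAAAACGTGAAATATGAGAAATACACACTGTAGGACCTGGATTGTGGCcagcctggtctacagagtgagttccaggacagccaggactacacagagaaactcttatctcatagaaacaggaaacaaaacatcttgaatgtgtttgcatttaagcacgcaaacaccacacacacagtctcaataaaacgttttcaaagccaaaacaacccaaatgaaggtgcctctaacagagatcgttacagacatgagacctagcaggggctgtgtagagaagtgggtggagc
Olfr1402: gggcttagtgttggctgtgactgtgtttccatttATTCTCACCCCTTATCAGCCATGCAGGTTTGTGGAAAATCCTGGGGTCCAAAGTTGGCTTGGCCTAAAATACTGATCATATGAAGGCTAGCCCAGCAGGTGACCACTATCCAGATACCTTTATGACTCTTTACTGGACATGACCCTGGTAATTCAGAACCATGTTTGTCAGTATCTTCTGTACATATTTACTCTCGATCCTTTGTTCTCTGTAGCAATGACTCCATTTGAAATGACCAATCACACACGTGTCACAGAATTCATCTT
AY761185: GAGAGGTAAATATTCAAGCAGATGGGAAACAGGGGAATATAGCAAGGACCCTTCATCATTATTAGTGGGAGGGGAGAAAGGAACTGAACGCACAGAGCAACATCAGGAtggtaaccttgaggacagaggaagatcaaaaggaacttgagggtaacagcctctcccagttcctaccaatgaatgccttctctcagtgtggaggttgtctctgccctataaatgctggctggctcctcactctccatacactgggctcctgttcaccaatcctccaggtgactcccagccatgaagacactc
The letters TGATGCAA, a C/EBP-ATF element, and TGACGTCA, a cyclic AMP response element, were searched on both strands. Neither was in these 3 windows or in that of Gm15564, the fourth gene. Over all 32851 promoter windows of the table, 0.895% held the first and 1.79% held the second. At these shares, their absence from the windows of 4 genes says nothing about the narrow regions. Only these exact letters were searched, and over whole windows, which lie only in part inside the narrow regions. The GC content was 44.3% for Gm13822, 43.0% for Olfr1402 and 49.3% for AY761185, against a median of 52.7% over all windows. The narrow region at Gm13822 and Oasl1 was among the strongest of the 260, whereas the other printed ones were weak. At Olfr1402 the folds were 5.57, 6.40, 7.34 and 5.64 in 2-DG replicates 1 to 4 and 4.36, 5.13, 5.15 and 7.07 in control replicates 1 to 4. At AY761185 they were 5.57, 5.34, 4.89 and 4.31 in the 2-DG lists and 5.45, 4.03, 5.61 and 7.42 in the control lists, and the groups overlapped at both.

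The fold in these lists is the authors' value at a peak's summit, the ratio of its pileup to background. In every list, 100% of the folds were whole multiples of 1 step (tolerance 0.01 of a step), and each fold came with a single -log10 p, so 1 background value served the whole list. A step was worth 0.309, 0.356, 0.489 and 0.332 fold in 2-DG replicates 1 to 4 and 0.364, 0.366, 0.468 and 0.354 in control replicates 1 to 4. The median narrow region stood at 29, 24.5, 17 and 33 steps in the 2-DG lists and at 20, 25, 19 and 29.5 steps in the control lists. If 1 step is 1 read, 17 steps carry an exact Poisson 95% interval of 9.90 to 27.2 and 33 steps one of 22.7 to 46.3, for counting error only. Folds of different lists are set side by side below as a description, and the treatments were tested on ranks among the 365 regions that all lists share, where 100 is the highest.

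The narrow regions stood high within each list, which follows in part from the rule. A call is a threshold on the same fold, and members had to be called in all 8 lists. Where a list had several peaks in a narrow region, the highest was taken. Their median fold was 8.97, 8.71, 8.31 and 10.9 in 2-DG replicates 1 to 4, where all peaks had medians of 4.33, 4.62, 4.89 and 4.65. In control replicates 1 to 4 it was 7.27, 9.16, 8.89 and 10.4, against 4.36, 4.40, 4.68 and 4.24 for all peaks. They made up 1.88%, 3.84%, 4.44% and 4.95% of the peaks in the 2-DG lists and 7.92%, 7.45%, 3.41% and 4.27% in the control lists. Of the 20 highest peaks, 9, 9, 12 and 13 were narrow regions in the 2-DG lists, and 15, 15, 16 and 15 in the control lists. Every control list thus had more narrow regions among its 20 highest peaks than any 2-DG list, which is not tested because calls chose the members. The members spanned a wide range of folds. Of the 260, 171 reached 5-fold in all 8 lists, 74 reached 10-fold, 32 reached 20-fold, 14 reached 50-fold and 6 reached 100-fold, while 187 stayed under 20-fold in every list.

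The 12 narrow regions with the highest mean rank were led by an interval 35256 bp from Pak3, a neuronal kinase gene, at chrX:143483004-143483110. Its fold was 244, 279, 298 and 278 in 2-DG replicates 1 to 4 and 244, 277, 318 and 263 in control replicates 1 to 4. It ranked first of the 365 regions in each list, was 107 bp wide in each list, and its summits fell within 1 bp of each other. Next came chr9:3001994-3002759, which lies 332472 bp from Alkbh8, its nearest protein-coding gene. The folds there were 196, 238, 224 and 229 in the 2-DG lists and 204, 221, 232 and 220.3 in the control lists. The groups overlapped at both regions, and the 2-DG list with the lowest fold was replicate 1 in each case.

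Several of the strongest regions lay inside genes. Cldn34d, of the claudin family of tight junction proteins, held chrX:76598550-76599136 at 194, 179, 149 and 178 fold in 2-DG replicates 1 to 4 and 171, 179, 175 and 196 fold in control replicates 1 to 4. Mdga2, a membrane-anchored protein of synapses, held chr12:67059164-67059931 at 167, 176, 136 and 175 fold in the 2-DG lists and 167, 197, 154 and 168 fold in the control lists. In both genes 2-DG replicate 3 had the lowest fold of its group, and the groups overlapped. Litaf, an endosomal membrane protein gene, held chr16:10975068-10975276 at 121, 127, 126 and 145 fold in the 2-DG lists and 112, 124, 123 and 122 fold in the control lists. The lncRNA gene Gm36264 held chr13:9011703-9012168 at 101, 105, 131 and 137 fold in the 2-DG lists and 68.3, 87.6, 101 and 110.3 fold in the control lists. At both of these the highest value was a 2-DG one and the groups overlapped. Within the 4 pairs of lists with consecutive title numbers, the 2-DG fold was the higher in each pair at both. The same held for 3 of the 12 highest regions, including the one near Nbea, and for 25 of all 260 narrow regions. In 10 of the 260 the 2-DG fold was the higher in no pair. By rank the 2-DG list was the higher in 1 of 4 pairs at Litaf and in 3 of 4 at Gm36264. Counts by rank leaned the other way from those by fold. The 2-DG rank was the higher in every pair in 17 of the 260 and the lower in every pair in 23. Among the 12 highest regions these counts were 0 and 2. Pairs were not counted over the wide regions.

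A ferritin light chain pseudogene, Ftl1-ps2, had a region 1390 bp outside it, chr10:130594291-130594993, where 1 replicate number stood apart in both treatments. Its fold was 97.1, 78.6, 166 and 117 in 2-DG replicates 1 to 4 and 76.0, 83.5, 179.6 and 132 in control replicates 1 to 4. Replicate 3 was the highest list of each treatment, and the groups overlapped. The region 7319 bp from Tmem196, chr12:120028561-120028918, had the same order at its top, with 68.7, 64.0, 105 and 87.9 fold in the 2-DG lists and 60.0, 71.8, 118 and 99.7 fold in the control lists. The interval between Gm13822 and Oasl1, an interferon-induced member of the oligoadenylate synthetase family, was chr5:114922448-114922608 and lay 535 bp outside Oasl1. It had 88.1, 94.97, 92.9 and 114 fold in the 2-DG lists and 85.8, 97.1, 90.7 and 100.4 fold in the control lists. The groups overlapped at both. The region 92712 bp from Kcnh5, a potassium channel gene, had 109 to 139.8 fold in the 2-DG lists and 124 to 147 fold in the control lists. The region 116644 bp from Fam174a had 51.4 to 72.7 fold in the 2-DG lists and 56.6 to 63.8 fold in the control lists. Only 1 of the 12 had folds that did not overlap, and the share of such regions among all narrow regions was not counted. This was the region 391683 bp from Nbea, a neuronal trafficking gene, with 68.5 to 75.7 in the 2-DG lists and 61.3 to 67.4 in the control lists. Its rank difference was -0.27 ± 1.43 points (SE, n = 4 each, limma adjusted p = 1), and its ranks overlapped.

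**Figure D1:**
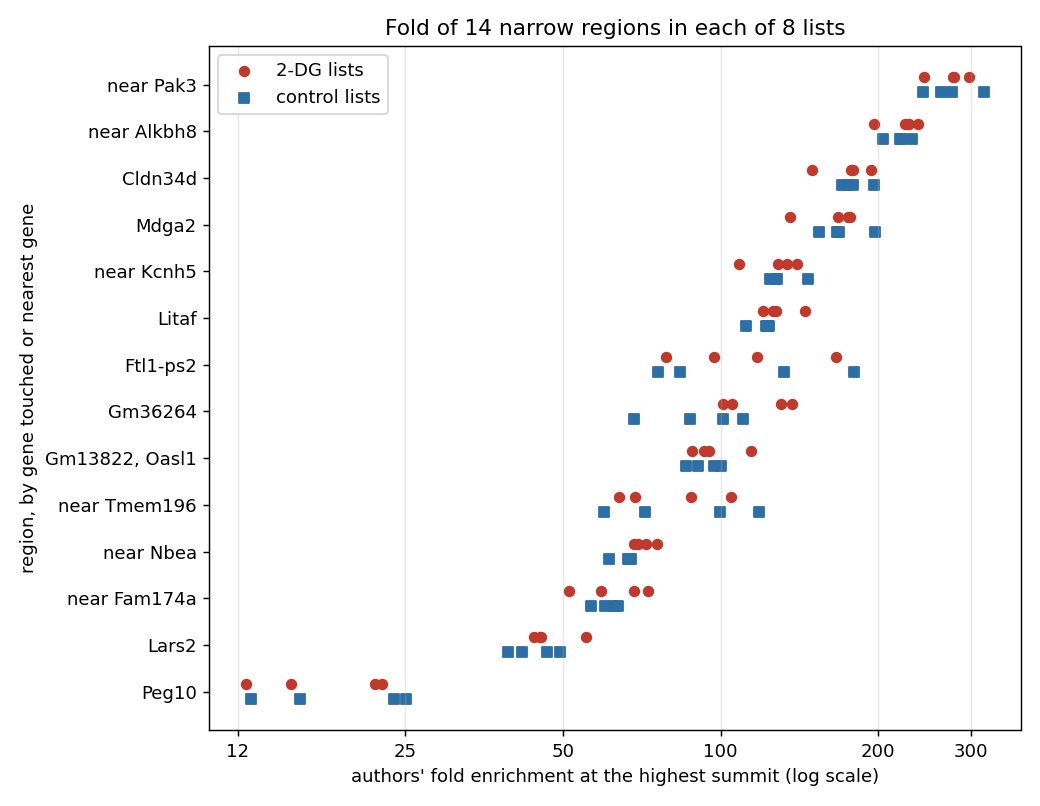
The authors' fold at the highest summit (log axis) of 14 narrow regions, the 12 highest in mean rank and those at ends of listed genes, with 1 point per list (circles for 2-DG, squares for control). The region near Pak3 lies between 244 and 318 in all 8 lists. The points of the treatments overlap in every region drawn except the one near Nbea, at 68.5 to 75.7 in 2-DG lists and 61.3 to 67.4 in control lists. How often folds failed to overlap among all narrow regions was not counted.

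The treatments were compared by rank among the regions of all 8 lists. A call is a threshold on the same fold that is ranked, so a region that fell below it in any list of either treatment was removed beforehand, and a count of 0 is in part set by that choice. With limma's moderated test and Benjamini-Hochberg adjustment over all 365 regions, 0 of 260 narrow regions differed between 2-DG and control lists, and 0.0% of all 365 did. The lowest adjusted p from limma was 0.676. At an unadjusted p under 0.05, limma had 12 narrow regions, where 4.66% of all 365 regions passed, and the exact permutation test had 10 narrow regions, where 4.38% of all passed. The lowest adjusted p of the permutation test was 0.652, and its smallest possible unadjusted p is 0.0286 (two-sided, 70 assignments). The rank difference, 2-DG minus control, had a median of -0.21 points over the narrow regions, -0.79 over the wide regions and -0.41 over all 365. Of the 260, 214 differed by under 10 points, and the standard error of a difference had a median of 6.70 points, so small shifts could not be detected. With lists of consecutive title numbers as blocks, 0 narrow regions passed (lowest limma adjusted p 0.447). Without control replicate 4, 1 narrow region passed limma's test, the one near Gm42346 (difference -29.5 points, adjusted p = 0.0483).

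Narrow regions whose ranks did not overlap between treatments were few. In 4 of 260 all 2-DG ranks lay above all control ranks, against 1.92% of all 365 regions, and in 6 of 260 all lay below, against 2.47%. The regions of this kind named next were chosen after their values were seen. The largest difference upward was at chr5:133143195-133143953, 599975 bp from Auts2, a neurodevelopmental gene. Its ranks were 62.5, 36.8, 39.0 and 40.7 in 2-DG replicates 1 to 4 and 22.1, 19.7, 28.8 and 27.7 in control replicates 1 to 4. The difference was 20.2 ± 5.98 points (SE, n = 4 each, limma adjusted p = 0.691). The largest difference downward was at chr5:15483329-15484591, 6793 bp from Gm21149. Ranks there were 18.9, 13.7, 28.1 and 29.0 in the 2-DG lists and 37.7, 59.7, 62.6 and 48.2 in the control lists, a difference of -29.6 ± 6.39 points (SE, n = 4 each, limma adjusted p = 0.676). At chr4:145404689-145405587, 6645 bp from Gm42346, ranks were 13.8, 13.7, 21.8 and 11.2 in the 2-DG lists and 37.7, 48.6, 47.5 and 23.3 in the control lists. These regions were of low fold, 5.31 to 10.8 in the 2-DG lists and 5.45 to 10.8 in the control lists over the 3 of them.

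**Figure D2:**
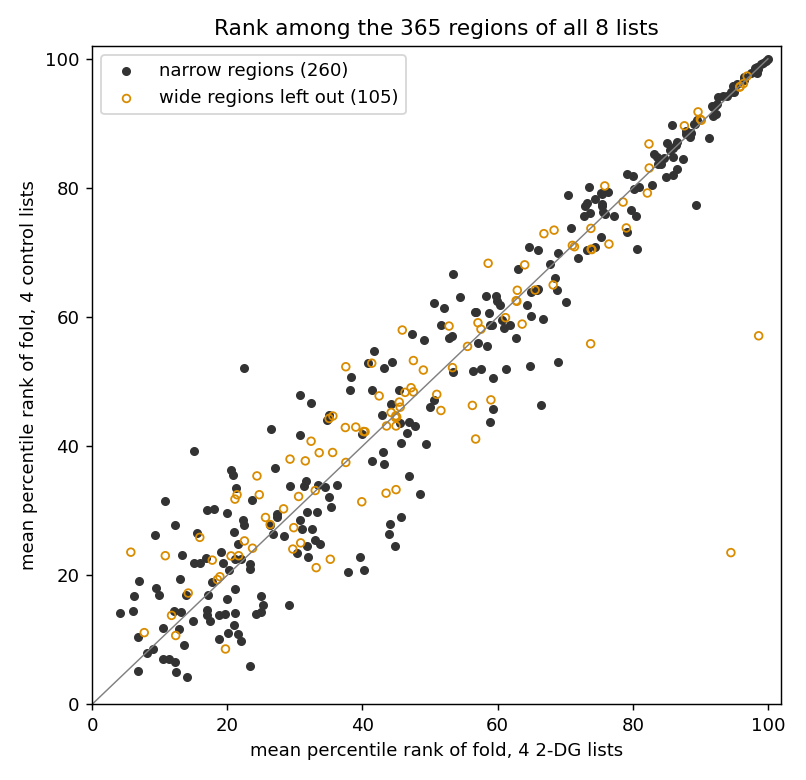
Mean rank of fold in the 4 2-DG lists and the 4 control lists for each region called in all 8 lists, where 100 is the highest of 365. Narrow regions lie along the diagonal, with differences between -29.6 and 20.2 points.

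The order of the narrow regions was alike in lists of the same and of different treatments. Spearman's rho of fold over the 260 regions averaged 0.858 over the 6 pairs of 2-DG lists (0.814 to 0.887), 0.833 over the 6 pairs of control lists (0.753 to 0.900) and 0.853 over the 16 pairs of 1 list from each treatment (0.782 to 0.924). These correlations are across regions of a shared genome sequence and describe the lists only. The highest fold of a region over the 8 lists exceeded the lowest by a median factor of 1.88, and by less than 2 in 159 regions, though steps differ in worth between lists.

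Summit positions were compared next. Over the 8 lists the summits of a narrow region spanned a median of 66 bp, and in 126 regions, 48.5%, they lay within 50 bp. Within 10 bp lay 49 regions, and 4 regions had the same start and end in all 8 lists. Over the 4 2-DG lists alone the median span was 25.5 bp in narrow regions, 543 bp in wide regions and 44 bp in the 616 regions that every 2-DG list and no control list had. The width limit bounds these spans, so the contrast with wide regions follows from the choice of members. The share within 50 bp over those lists was 57.7% in narrow regions, 14.3% in wide regions and 55.2% in the 616. For each list the median distance of its highest summit from the region's median summit was taken. These medians averaged 5.88 ± 1.38 bp over 2-DG lists and 6.44 ± 0.515 bp over control lists (SD over lists, n = 4 each; exact permutation p = 0.486, adjusted over 2 measures 0.543). The mean number of summits per narrow region was 1.47 ± 0.127 in 2-DG lists and 1.42 ± 0.121 in control lists (SD, n = 4 each; exact permutation p = 0.543, adjusted 0.543). Peak width was limited in control lists alone, and 11 narrow regions held a 2-DG peak of 800 bp or wider. Wider peaks leave room for more and farther summits, so neither comparison is independent of the rule and no conclusion is drawn from them. Leaving out 2-DG replicate 3, which gave 316 narrow regions, moved the difference in distance to -1.25 bp (exact permutation p = 0.0286). That p is unadjusted, the lowest among the alternatives tried, and the smallest this test can give with 1 list fewer. Leaving out 2-DG replicate 1, which gave 267 narrow regions, turned the difference to 0.0833 bp.

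Positions were not used by the rule and are set beside those of all merged regions. A pseudogene was within 2000 bp of 39 narrow regions, 15.0% (exact binomial 95% interval 10.9 to 19.9), against 17.1% of the wide regions, 3.08% of all 35717 regions and 0.812% of the 616. Several pseudogenes were counted repeatedly, among them Gm2420 in 4 regions and Pisd-ps1 and Pisd-ps2 in 3 each. A small RNA gene was within 2000 bp of 9 narrow regions, 3.46%, against 0.952% of the wide regions and 0.596% of all. These 9 include a region counted through Gm9919, a misc_RNA gene spanning chr10:58239034-58252702, and a pair of regions that share Snord37. In the first 3.5 Mb of a chromosome lay 34 narrow regions, 13.1% (9.23 to 17.8), against 17.1% of the wide regions, 0.935% of all and 0.162% of the 616. Local runs on chromosomes 17, 9, 11 and 16 held 11, 8, 4 and 3 of the 34. Chromosome X held 16 narrow regions, 6.15% (3.56 to 9.80), against 3.81% of the wide regions and 1.60% of all. Chromosomes 1 and 5, which held the most narrow regions, together held 80, 30.8%, against 43.8% of the wide regions and 14.8% of all. Most of these lay in a few local runs, described below. Such runs held 23, 11 and 5 of the 44 on chromosome 1 and 22, 6 and 4 of the 36 on chromosome 5. Chromosome 15 held 0 of 260, against 3.96% of all regions. By the rule of 3, an approximate upper limit unlike the exact intervals here, 0 of 260 allows a share of up to 1.15%. Ends of protein-coding genes, within 2000 bp, had 27 of the narrow regions, 10.4% (6.96 to 14.7), against 16.2% of the wide regions, 7.29% of all and 17.7% of the 616. Where a narrow region had a protein-coding gene nearby, that gene had only a provisional name in 32 of 99 regions, 32.3%, against 4.35% of 15989 regions. Most of the 32 lay in the chromosome 1 run of 23 narrow regions, where A530032D15Rik, Gm38510 and Gm7592 were counted repeatedly. Intervals cover counting error only, and neighbouring regions are not independent.

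**Figure D3:**
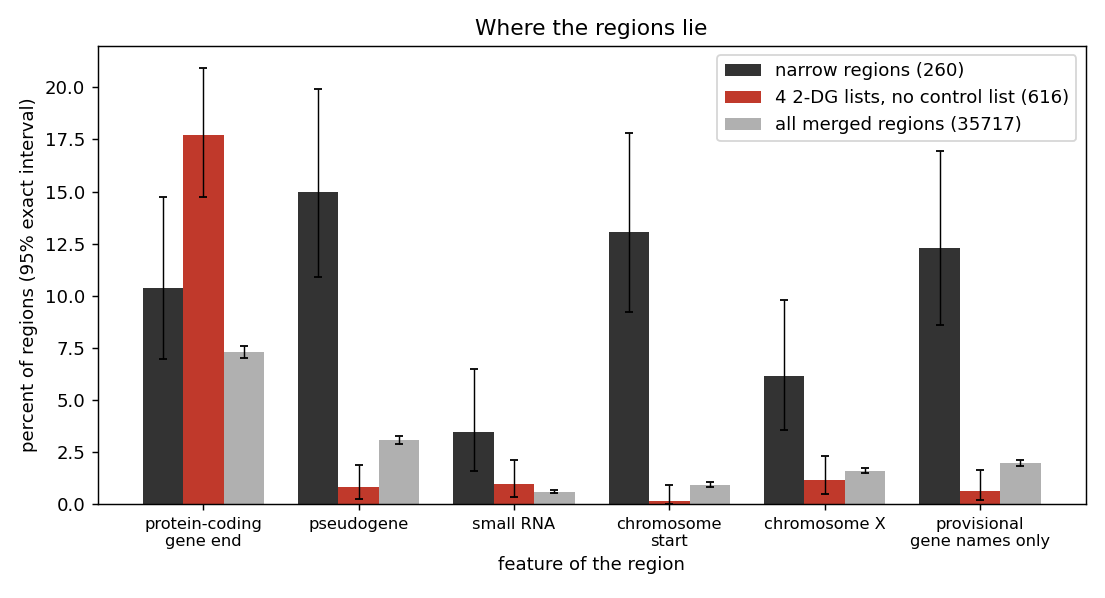
Percent of regions with each kind of position (bars, with exact binomial 95% intervals) for the narrow regions, the 616 regions of the 2-DG lists and all 35717 merged regions; provisional names are given over all regions of a class. Pseudogenes lie within 2000 bp of 15.0% of the narrow regions, against 3.08% of all.

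Many narrow regions came in runs. Chained at distances of up to 100 kb, 114 of them, 43.8%, formed 14 groups of 3 or more, 30 were in pairs and 116 stood alone. Regions in groups had a median mean rank of 44.2, against 57.8 outside groups, and a median width of 486.5 bp, against 355.5 bp. Summits lay within 50 bp in all 8 lists in 41.2% of the grouped regions and in 54.1% of those outside. Of the 32 regions at 20-fold or more in all 8 lists, 7 were in groups and 25 outside.

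The largest group held 23 narrow and 18 wide regions at chr1:84990339-85345761, over genes with provisional names that include A530032D15Rik, Gm38510 and Gm7592. Its folds ran over 4.27 to 18.9 in the 2-DG lists and 3.74 to 19.4 in the control lists. A second chromosome 1 group, chr1:85593732-85627657, had 11 narrow regions over Sp110 and Sp140, which encode nuclear body proteins. The folds there were 4.33 to 21.9 in the 2-DG lists and 3.74 to 19.1 in the control lists. On chromosome 5, 22 narrow regions lay at chr5:15464937-15693719 over Gm21149, Speer4cos of the spermatogenesis-associated Speer family, and other genes, with folds of 3.71 to 17.3 in the 2-DG lists and 3.74 to 15.6 in the control lists. The ranges overlapped almost fully in these 3 groups.

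At the start of chromosome 9, chr9:3001994-3029904 held 8 narrow regions and no annotated gene, with mean ranks of 83.3 to 99.7. Their folds were 20.5 to 238 in the 2-DG lists and 7.02 to 232 in the control lists. The single low value was that of chr9:3022434-3022917 in control replicate 3, at 7.02 fold, where its other lists had 31.2, 33.4, 28.9 and 28.2 in 2-DG replicates 1 to 4 and 26.9, 32.6 and 31.5 in the remaining control lists. On chromosome 17, 11 narrow regions lay at chr17:3006430-3084549 over and beside Pisd-ps2, with 4.62 to 42.5 fold in the 2-DG lists and 4.00 to 48.8 fold in the control lists.

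Pisd-ps2 is a pseudogene of Pisd, which encodes the mitochondrial enzyme that makes phosphatidylethanolamine from phosphatidylserine, and narrow regions were found at or near Pisd and at its pseudogenes Pisd-ps1 and Pisd-ps2. On chromosome 5 a group of 4 lay in or within 2000 bp of Gm2420, of which 1, chr5:32737974-32738173, was at Pisd and the other 3 were in or within 2000 bp of Gm52771 and farther than that from Pisd. The 4 had 7.83 to 22.9 fold in the 2-DG lists and 8.00 to 23.0 fold in the control lists. The 3 at Pisd-ps1 on chromosome 11 had 6.76 to 16.1 fold in the 2-DG lists and 5.09 to 16.6 fold in the control lists. The 3 at Pisd-ps2 on chromosome 17 had 9.59 to 24.9 fold in the 2-DG lists and 7.27 to 27.9 fold in the control lists. Reads from such copies cannot be told apart by position where the copies are identical, and the labels do not state how multiply mapped reads were treated. A chromosome 10 group over Duxf3, a homeobox gene active in the early embryo, and its neighbours had 6 narrow regions at 6.05 to 17.1 fold in the 2-DG lists and 4.73 to 17.0 fold in the control lists.

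**Figure D4:**
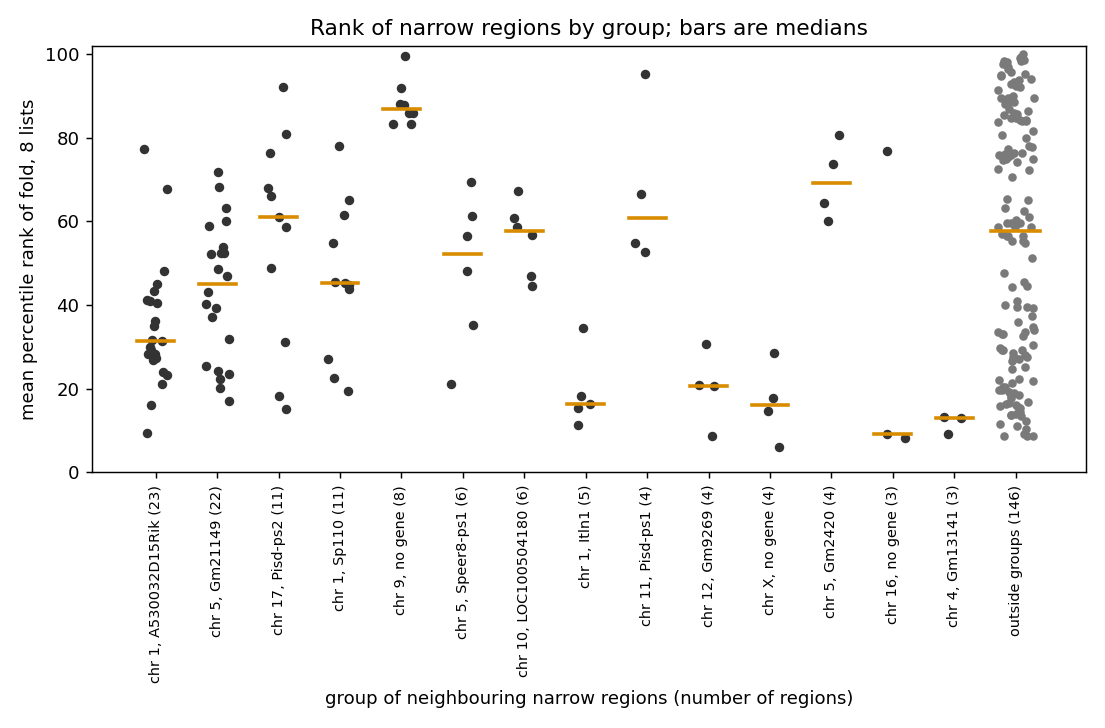
Mean percentile rank of fold over the 8 lists (vertical axis) for narrow regions in each of the 14 groups and outside them, with 1 point per region and a bar at each median. The chromosome 9 group without a gene lies at 83.3 or above, and the median is 57.8 outside groups.

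Few genes of any kind had a narrow region at an end. Of 21627 protein-coding genes, 24 had one within 2000 bp of an end (0.111%), and 8 of the 24 had provisional names. Of 33 ATF4 targets, 0 had one, which at this background share says nothing about ATF4 targets in particular. An end touched by one of the 616 regions that every 2-DG list and no control list had was found for 14 of the 33, and for 0.592% of all protein-coding genes. Likewise, of 16 ER chaperone and sensor genes and of 9 neurotrophin and receptor genes, 0 had one, and of 25 marker genes of neurons, progenitors, glia, microglia and vessels, 0 had one. Of 20 cytosolic tRNA synthetase genes 0 had a narrow region, and Iars had a wide one. Peak lists measure no expression, so the labelled cell type could not be checked against its markers.

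Single members of 3 lists did have a narrow region. Lars2, the mitochondrial leucyl-tRNA synthetase, was the only one of 17 mitochondrial synthetase genes, with chr9:123461815-123462187 lying 488 bp inside its upper end. It had 45.5, 45.2, 44.0 and 55.4 fold in 2-DG replicates 1 to 4 and 41.8, 49.5, 39.3 and 46.7 fold in control replicates 1 to 4, and the groups overlapped. Peg10, an imprinted gene derived from a retrotransposon, was the only one of 16 imprinted genes, with chr6:4762375-4762543 lying 1858 bp outside it. Its fold was 22.6, 12.4, 15.2 and 21.9 in the 2-DG lists and 12.7, 15.8, 23.9 and 25.1 in the control lists, again overlapping. Oasl1, described above, was the only one of 15 interferon and oligoadenylate synthetase genes, of which 14 matched the annotation.

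The 2 lists with conflicting labels were not used by the rule. The first, with control in its title and 2-DG in its description, had a peak in 251 of the 260 narrow regions, 96.5% (exact binomial 95% interval 93.5 to 98.4), and the second, with 2-DG in its title and control in its description, had one in 254, 97.7% (95.05 to 99.1). Among the 194 regions called in 7 of the 8 lists, the shares were 88.1% in the first list and 86.1% in the second. Of the 616 regions that every 2-DG list and no control list had, the first list had 3, 0.487%, and the second had 527, 85.6%. Spearman's rho of fold with each of the 8 lists was 0.816 to 0.923 over the 251 regions of the first and 0.808 to 0.922 over the 254 of the second.

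**Figure D5:**
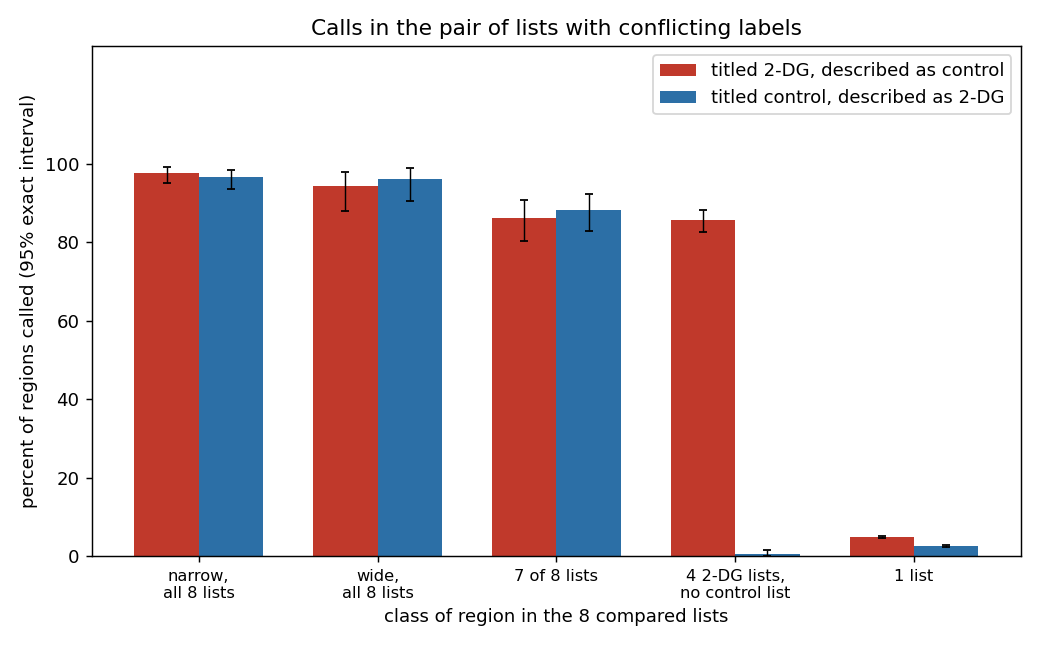
Percent of regions of each class called in each of the 2 lists with conflicting labels (bars, with exact binomial 95% intervals). Narrow regions stand at 97.7% in the list titled 2-DG and 96.5% in the list titled control, and the 616 regions of the 2-DG lists at 85.6% and 0.487%.

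At the width limit, the narrow regions just inside were those at Gm7592 and Gm7281 with a widest control peak of 799 bp, at Itln1, an intestinal lectin gene, with 796 bp, and at Mrgpra3, a sensory neuron receptor gene, with 795 bp. Just outside were the wide regions at Gm42346 with 821 bp, near Gm21149 with 826 bp and at Gm26740 and H60b with 838 bp.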

How the data were processed

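Peak lists of 10 immunoprecipitations were read, 1 list per sample. The submitters' processing notes name BWA, Picard, MACS2 and DiffBind, without versions, and the build mm10. The authors deposited, for each summit, its position, a fold over background (a ratio), -log10 p-value and -log10 q-value columns, and a score that is -log10 q times 10, truncated. The lowest deposited -log10 q ran from 1.32 to 1.77, so lists end at different q-values. Repeated intervals, 431 to 1807 per list, were counted once, at their highest summit.

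Merging, ranking and counting used Python 3.11.15 with pandas 2.3.3, and ranks were tested with limma 3.58.1 in R 4.3.3 and by exact permutation over lists. The code was first tested on simulated data. For gene positions, RefSeq's GRCm38.p6 table was used, which gives neither strand nor exons. Regions are named by rule: the 12 highest in mean rank, those past limma's threshold, those at ends of listed genes, 3 on either side of the width limit and 5 groups. Pisd, Duxf3, the small RNA regions and regions whose ranks did not overlap were added after their values were seen. Members and lists were chosen with earlier results of these data known. Alternatives changed the q-value, overlap, width, scale and gene-end window, left out each list, and added the conflicting lists. A replicate block on consecutive titles and leaving out groups of 3 or more were added after seeing the data.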

Additional observations from a re-analysis of the deposited data

Results flagged for a closer look

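Among 32 groups of 4 lists screened, from the highest-ranked narrow regions, 4 had 1 list whose rank stood apart from the other 3 of its treatment. Chance flags about 1 in 20 groups of untied values, or 1.6 of 32. That rate does not hold here, since the other 3 ranks were tied in all 4 cases and any move of 1 list then stands apart. Each departure was small, since 1 place among the 365 regions is 0.274 points. The region near Alkbh8 ranked at 99.5 in 2-DG replicate 1 and at 99.7 in the other 2-DG lists. The one in Cldn34d ranked at 99.5 in 2-DG replicate 4 and at 99.2 in the other 2-DG lists. The one in Mdga2 ranked at 99.2 in 2-DG replicate 4 and at 98.9 in the other 2-DG lists. The one in Litaf ranked at 98.9 in 2-DG replicate 4 and at 98.4 in the other 2-DG lists.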

How the results depend on the processing

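The number of narrow regions, 260, fell to 147 at a -log10 q of at least 5 and to 146 without groups of 3 or more, and was 267 to 316 when 1 list was left out. The number of regions whose rank differed by limma was 2 on the log2 fold scale, both wide (Gm26812 and Iars), and 0 to 2 when 1 list was left out. Without control replicate 1 the single call was wide Iars, and without control replicate 4 the calls were 1 wide and 1 narrow, near Gm42346. The difference in summit distance was -1.58 to 0.0833 bp when 1 list was left out. The share at gene ends was 3.46% with a 500 bp window, where all regions had 2.70%, and 17.7% with 5000 bp, where all had 14.8%. A replicate block on consecutive titles left 0 limma calls, with 24 regions at an unadjusted p under 0.05. Rank deviations of the 4 consecutive pairs correlated at 0.163 to 0.289, a hint from the data and not the design. Depth is unknown, no input was used, and the causes of these shifts were not tested.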

Other observations

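Small RNA genes lay beside some narrow regions, chosen here after their values were seen. A pair of regions inside the translation elongation factor gene Eef2 lay 141 bp and 729 bp from Snord37, a small nucleolar RNA gene that also lies within Eef2. The nearer, chr10:81178680-81178820, had 9.59, 14.2, 12.2 and 16.9 fold in 2-DG replicates 1 to 4 and 6.18, 10.3, 11.7 and 11.3 fold in control replicates 1 to 4. The farther, chr10:81178054-81178232, had 12.1, 7.83, 14.2 and 17.9 fold in the 2-DG lists and 6.18, 9.53, 7.48 and 12.4 fold in the control lists. The groups overlapped at both.

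The region at the tRNA gene n-TKctt13, chr17:23531536-23532003, had 15.5, 13.2, 12.7 and 15.6 fold in the 2-DG lists and 17.1, 18.3, 15.9 and 12.0 fold in the control lists. The region at Rn4.5s, chr6:47652968-47653240, had 13.3, 12.8, 14.7 and 13.9 fold in the 2-DG lists and 14.9, 12.5, 11.7 and 12.4 fold in the control lists. Neither separated the treatments.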
